A study of Homo sapiens with 22 samples.

Results

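The experiment described here lowered the transcript of SMYD3 in HN-6 cells with an antisense oligonucleotide, ASO081, and set it against phosphate-buffered saline (PBS). It comprises 4 of the 22 RNA-seq libraries of the series, 2 labelled ASO081 and 2 labelled PBS, chosen by their labels and by no measured value. HN-6 is an established cell line from a head and neck squamous carcinoma without human papillomavirus. Cells were kept with ASO081 or PBS for 72 h, and all 4 cultures also received human interferon-β at 1000 U/ml for the 24 h before collection, so no library shows cells without interferon. The study calls its replicates biological. The controls received no oligonucleotide at all, so the loss of SMYD3 and the presence of an oligonucleotide cannot be told apart in this comparison. It rests on 1 oligonucleotide and 1 cell line. The question it addresses is how RNA levels across all genes differ once SMYD3 is lowered in cells under interferon.

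SMYD3 is a lysine methyltransferase that acts on histones and on cytoplasmic proteins, and it is often abundant in tumours. Antisense oligonucleotides are short synthetic strands that pair with a chosen RNA, and many of them are built so that RNase H cuts the paired RNA. Interferon-β binds a receptor on the cell surface and activates the kinases JAK1 and TYK2. These switch on a transcription factor complex, with STAT2 and IRF9 among its subunits, that binds the interferon-stimulated response element (ISRE) in the promoters of antiviral genes.

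The 4 libraries held 30792923 to 32045158 reads in genes. Between replicates, the median absolute log2 difference of a gene was 0.10 for PBS and 0.11 for ASO081, and between same-numbered libraries of the 2 groups it was 0.18 and 0.19. The first principal component, with 60.8% of the variance, placed both PBS libraries at -24.1 and -21.8 and both ASO081 libraries at 19.6 and 26.3. Markers of squamous epithelium fitted the label in part: KRT5 lay between 357 and 394 counts per 1000000 reads in genes (CPM), CDH1 between 566 and 666 and ITGB4 between 699 and 790, while KRT14 lay between 0.744 and 1.85. The 12 leukocyte markers summed to 15.6 and 17.0 CPM with PBS and to 15.1 and 18 with ASO081, with 4 of them at 0 in every library. The 9 fibroblast markers summed to 122 and 126 CPM with PBS and to 93.2 and 111 with ASO081. Of 7 tested leukocyte markers 1 rose (ITGAM) and 1 fell (CD14), of 4 tested fibroblast markers 0 rose and 2 fell (LUM and PDGFRB), and of 4 tested endothelial markers 0 rose and 0 fell. DESeq2 called neither CD14, ITGAM nor PDGFRB, and LUM was not called without ASO081 replicate 2. Their part in the results was not tested. In RNA from whole cultures, fewer cells of a type and less RNA per cell cannot be told apart.

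SMYD3 itself, at chr1:245749342-246507312 on the minus strand (GRCh38), had 702 and 684 reads with PBS and 129 and 98 with ASO081, which is 22.7 and 21.3 CPM against 4.12 and 3.18. Both ASO081 libraries lay below both PBS libraries. Its log2 fold change was -2.52 ± 0.12 (standard error, SE, of the fit), 5.75-fold lower, with an adjusted p of 1.34e-08 by edgeR's quasi-likelihood test with Benjamini-Hochberg adjustment, the test behind every adjusted p given here unless another is named. In the SMYD3 siRNA experiment, which had its own control siRNA and 3 libraries a side, the log2 fold change of SMYD3 was -2.43. The difference between both effects, -0.10 ± 0.18 (edgeR adjusted p = 0.71), was smaller than its error. Of 11 genes tested around SMYD3 on chromosome 1, 3 rose and 0 fell (median log2 fold change 0.16). Only 1 rose when the spread was estimated together with the siRNA libraries. The 3 were not the closest: HNRNPU lies at chr1:244840638-244864560, COX20 at chr1:244835616-244845057 and ADSS at chr1:244408494-244451909. TFB2M (chr1:246540561-246566261) and CNST (chr1:246566444-246668595) lie closer to SMYD3 and were not called. COX20, an assembly factor of cytochrome oxidase, rose from 21 and 19.3 CPM to 25.6 and 24.4 (log2 fold change 0.38), while TFB2M, a mitochondrial transcription factor, was at 16.5 and 14 against 13.7 and 15.6 CPM (0.01, edgeR adjusted p = 0.95). The called changes around SMYD3 were therefore small and none was a loss.

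Across the transcriptome 18233 genes were tested. At an adjusted p under 0.05, 2068 genes (11.3%) rose and 1880 (10.3%) fell. Most of these changes were small: the median absolute log2 fold change of the called genes was 0.33, and 3135 of them (79.4%) changed by less than 1.5-fold. Changes of 2-fold or more were found for 182 genes that rose (0.998%) and 101 that fell (0.554%). Of these, 100 risers and 22 fallers had a mean log2 CPM of 1 or more, so the larger falls were mostly of scarce transcripts. DESeq2 also called 97 of the 182 and 21 of the 101. The libraries of the groups did not overlap in CPM for 21.6% of genes in the upward direction and 40.4% in the downward direction on CPM, which carries no TMM factor. TMM scaling, used here, put the median log2 fold change of all genes at -0.0043, and library totals alone put it at -0.07. The share of called genes that rose was 52.4% with TMM factors and 30.9% with library totals alone, so the split between rises and falls depends on the scaling. The shares of all genes, 11.3% higher and 10.3% lower, are the comparison for every list count given below. Beside the counts of a gene list, a range in brackets is the lowest and highest count over 12 alternative analyses. Counts of 4 or fewer members moved by up to 6 genes among these alternatives, and not every such move is given.

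**Figure D1:**
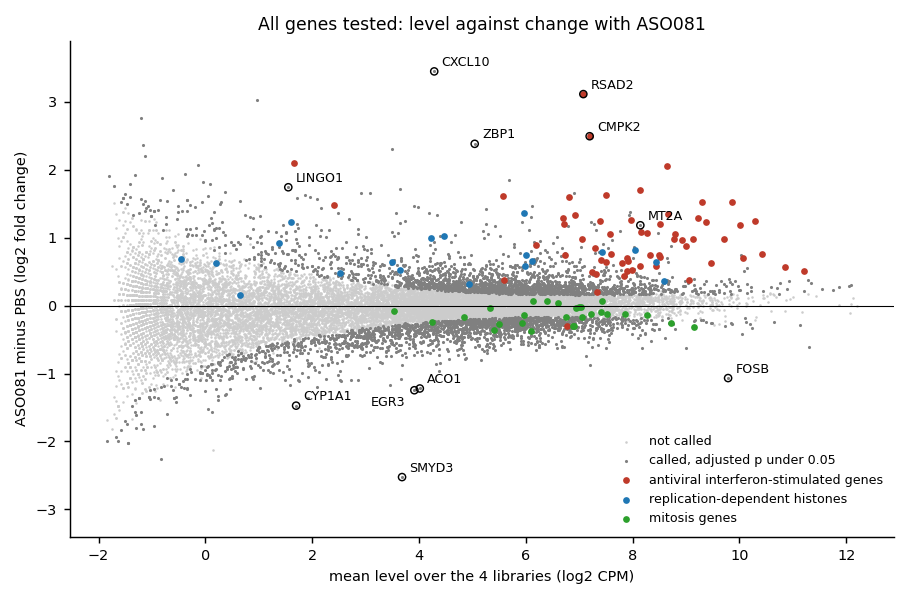
Log2 fold change of ASO081 over PBS for each of the 18233 tested genes (vertical axis) against its mean log2 CPM over the 4 libraries (horizontal axis), with called genes in dark grey, other genes in light grey, and the antiviral, histone and mitosis lists in red, blue and green. SMYD3 stands at -2.52 among the falls, and CXCL10 at 3.45 and RSAD2 at 3.11 lie at the top, while the red points lie above 0 except GBP2 at -0.30.

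Of the 182 genes that rose 2-fold or more, 45 belonged to lists of interferon and immune genes and 137 did not. These lists are not complete, so the 137 may hold further genes that respond to interferon. Of the 101 that fell 2-fold or more, 0 were in those lists and 3 were in any of the 52 lists used. Examples of promoters with a match to the ISRE are printed here because the interferon group holds the largest changes. The windows come from RefSeq promoters on GRCh38.p14, which run from 250 bases before to 50 bases after the start site and were matched by symbol for 11646 of the 18233 genes. Each is written 5′ to 3′ on the gene's strand, upstream of the start site, and capitals mark matches to the motif core on either strand, which may overlap. The core searched for the ISRE is GAAA, any 2 bases and GAAA. That for NF-κB is GGGA, any base and TTTCC, and that for the heat shock element is GAA, any 2 bases, TTC, any 2 bases and GAA.
CXCL10: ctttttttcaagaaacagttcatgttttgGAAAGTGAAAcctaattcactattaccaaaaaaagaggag
ISG20: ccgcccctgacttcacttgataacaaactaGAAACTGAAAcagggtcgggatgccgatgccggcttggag
IFIT1: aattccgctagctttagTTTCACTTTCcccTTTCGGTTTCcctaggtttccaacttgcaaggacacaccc
ISG15: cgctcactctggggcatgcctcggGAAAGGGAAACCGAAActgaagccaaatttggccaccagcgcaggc
IFIH1: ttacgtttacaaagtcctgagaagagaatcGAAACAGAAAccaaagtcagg
TAP1: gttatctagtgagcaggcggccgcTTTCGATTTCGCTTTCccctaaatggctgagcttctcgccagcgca
CXCL1: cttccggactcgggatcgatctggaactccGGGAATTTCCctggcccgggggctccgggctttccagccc
CXCL2: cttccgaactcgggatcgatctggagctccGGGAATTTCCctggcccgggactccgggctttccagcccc
HSPA8: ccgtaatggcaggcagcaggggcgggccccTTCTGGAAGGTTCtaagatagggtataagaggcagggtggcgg
The ISRE windows lie at chr4:76023679-76023747 (CXCL10, minus strand), chr15:88638917-88638986 (ISG20, plus), chr10:89392490-89392559 (IFIT1, plus), chr1:1013360-1013429 (ISG15, plus), chr2:162318685-162318735 (IFIH1, minus) and chr6:32853793-32853862 (TAP1, minus). The NF-κB windows lie at chr4:73869284-73869353 (CXCL1, plus) and chr4:74099234-74099303 (CXCL2, minus), and the heat shock window at chr11:123062149-123062221 (HSPA8, minus). The match nearest the start site ended 211 bases before it in CXCL10 and 11 bases before it in IFIH1.

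The ISRE core was found in 355 of the 11646 promoters (3.05%). It was found in 30 of 44 promoters (68.2%) of the antiviral list described next, in 121 of 1535 (7.88%) of all genes that rose, in 32 of 96 (33.3%) of those that rose 2-fold or more, and in 1 of 42 (2.38%) of those that fell 2-fold or more. Among the 355 genes with the core, 121 (34.1%) rose and 24 (6.76%) fell, against 12.5% and 11.9% of genes without it. Of the 300 genes with the core that are in no interferon or immune list, 71 (23.7%) rose and 24 (8%) fell. For genes outside those lists that rose 2-fold or more, 9 of 62 promoters (14.5%) held the core. The NF-κB core was rarer, in 66 promoters (0.567%), of whose genes 25 (37.9%) rose and 4 (6.06%) fell. Of genes without it 13.0% rose and 11.8% fell. Of the 52 genes with the NF-κB core that are in no interferon or immune list, 13 (25%) rose and 4 (7.69%) fell. A match is a run of letters, not a measured binding site. RSAD2, CMPK2, CXCL11, BATF2 and NT5C3A, all among the largest rises, have no match to the ISRE core within the window.

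Antiviral interferon-stimulated genes rose almost without exception. Of 60 tested members of this list 59 rose and 1 fell. Their median log2 fold change was 0.97, and 26 rose 2-fold or more. Their summed level was 17250 and 17703 CPM with PBS and 31498 and 31350 with ASO081. RSAD2, which makes a chain-terminating nucleotide against viral polymerases, was at 27.7 and 29.6 CPM with PBS and at 232 and 242 with ASO081 (log2 fold change 3.11 ± 0.07, edgeR adjusted p = 1.87e-11). CMPK2, the mitochondrial nucleotide kinase next to RSAD2, was at 44.0 and 46.5 CPM against 243 and 245 (2.49 ± 0.06). For both genes the ASO081 libraries lay far above the PBS libraries and close to each other. RSAD2 (chr2:6865806-6898239, plus strand) and CMPK2 (chr2:6840570-6866635, minus strand) overlap at their ends, and the strand setting of the counting is not given in the sources used here, so some of their reads cannot be told apart.

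The IFIT proteins, which bind viral RNA ends, rose together: IFIT2 from 158 and 161 CPM to 655 and 607 (log2 fold change 2.05 ± 0.06), IFIT1 from 491 and 492 to 1338 and 1366 (1.53) and IFIT3 from 330 and 335 to 905 and 927 (1.53). MX2, a dynamin-like restriction factor, rose from 126 and 143 CPM to 406 and 435 (1.71 ± 0.07), and OASL, a relative of the 2′-5′ oligoadenylate synthetases, from 84.2 and 96.0 to 267 and 265 (1.63 ± 0.07). ISG15, the ubiquitin-like modifier, rose from 326 and 387 CPM to 867 and 802 (1.29). ISG20, an RNA exonuclease, rose from 22.8 and 25.2 CPM to 73.5 and 67.7 (1.62). In each of these genes both ASO081 libraries lay above both PBS libraries. The single member that fell was GBP2, a guanylate-binding GTPase, at 133 and 114 CPM with PBS and 107 and 85.0 with ASO081 (-0.30), a call lost without PBS replicate 1 or ASO081 replicate 2, while its relative GBP5 rose from 1.42 and 0.999 CPM to 5.11 and 4.84 (2.10 ± 0.19). The count of 59 rises was 58 when the spread was estimated together with the siRNA libraries and 59 with the exon length trend removed.

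**Figure D2:**
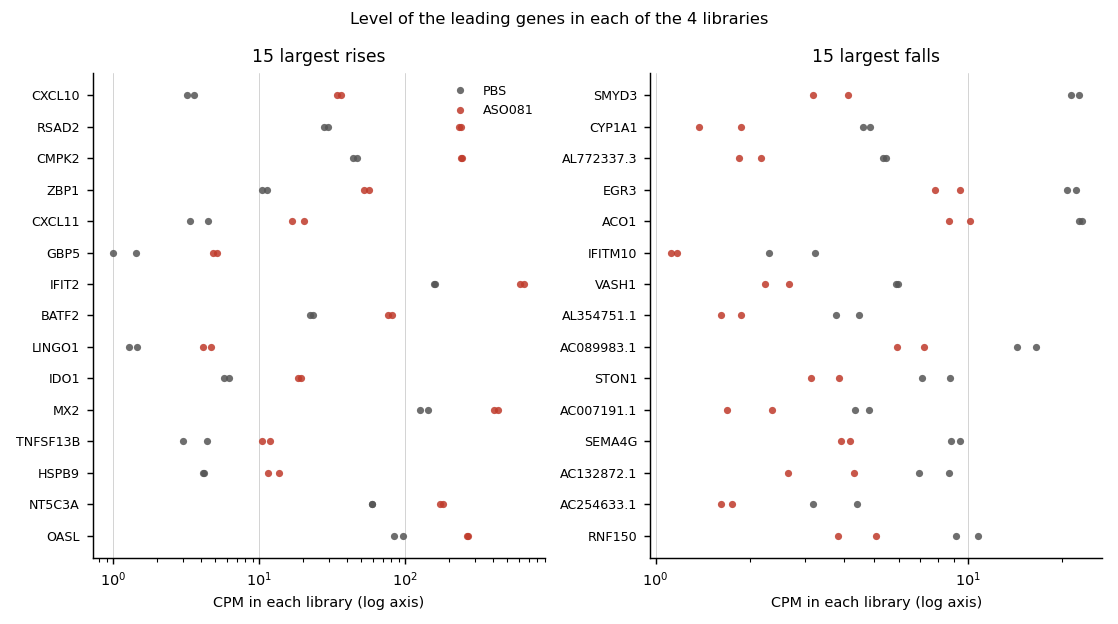
CPM in each library (log axis) of the 15 largest rises (left) and the 15 largest falls (right) among expressed genes, with PBS libraries in grey and ASO081 libraries in red. The genes were chosen for groups that do not overlap; RSAD2, for example, lies at 27.7 and 29.6 against 232 and 242 CPM, and the replicates lie further apart among the scarce transcripts on the right, such as AC132872.1 at 4.31 and 2.66 with ASO081.

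Above the antiviral genes in the pathway, 11 of 22 receptors, kinases and transcription factors of interferon signalling rose (range 9 to 12) and 0 fell. Their median was 0.23. STAT2 rose from 314 and 309 CPM to 474 and 490 (log2 fold change 0.70 ± 0.06) and IRF7, which amplifies interferon genes, from 135 and 136 to 248 and 217 (0.84). SOCS1, a feedback inhibitor of the JAK kinases, rose from 2.14 and 1.90 CPM to 4.98 and 3.93 (1.21 ± 0.18). BATF2, a partner of interferon regulatory factors, rose from 22.3 and 23.3 CPM to 81.0 and 76.1 (1.85 ± 0.06). Of 15 sensors of foreign nucleic acid and their adaptors, 14 rose (range 10 to 14) and 1 fell (median 0.66). DDX58, the RNA helicase RIG-I, rose from 139 and 144 CPM to 345 and 358 (1.38), IFIH1, the helicase MDA5, from 92.9 and 88.3 to 205 and 203 (1.24), and the DNA sensor AIM2 from 16.7 and 17.1 to 36.9 and 38.6 (1.22). ZBP1, a sensor of left-handed nucleic acid, rose from 11.3 and 10.5 CPM to 56.4 and 52.2 (2.38 ± 0.07). MAVS, the adaptor shared by RIG-I and MDA5, was the member that fell (-0.34). Interferons themselves were scarce: IFNB1 had 1 read in each library, and IFNL1, the only ligand with enough reads to test, had 3 and 3 reads with PBS and 29 and 11 with ASO081 (edgeR adjusted p = 0.0067). DESeq2 gave no adjusted p for IFNL1, and it was not called without ASO081 replicate 1.

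Calls among antigen presentation genes were all rises. Of 21 genes of the class I pathway 17 rose (range 12 to 20) and 0 fell (median 0.34). Of 11 of the class II pathway 5 rose (range 2 to 6) and 0 fell (0.37). TAP1, which carries peptides into the endoplasmic reticulum, rose from 225 and 243 CPM to 460 and 478 (log2 fold change 1.07), and its partner TAP2 from 64.6 and 64.3 to 111 and 121 (0.91). NLRC5, the class I transactivator, rose from 65.9 and 73.8 CPM to 106 and 109 (0.69), and the immunoproteasome subunit PSMB8 from 187 and 183 to 259 and 250 (0.53). CD74, the class II invariant chain, rose from 239 and 233 CPM to 322 and 285 (0.43). Reads of the classical HLA genes are uncertain because their sequences are nearly alike.

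Of 14 tested chemokines 9 rose (range 8 to 11) and 0 fell (median 0.85). CXCL10, a ligand of CXCR3 that draws T cells (chr4:76021118-76023497, minus strand), had the largest rise of the expressed genes, from 3.56 and 3.18 CPM to 36.2 and 34.2 (log2 fold change 3.45 ± 0.10, edgeR adjusted p = 1.77e-10). CXCL11, another CXCR3 ligand, rose from 3.36 and 4.43 CPM to 20.2 and 16.8 (2.31 ± 0.14). CCL5, a chemokine that draws T cells, rose from 27.6 and 26.4 CPM to 62.4 and 54.1 (1.18 ± 0.07). The neutrophil chemokine CXCL2 rose from 11.7 and 9.21 CPM to 28.0 and 23.2 (1.36 ± 0.11), with CXCL1 at 1.12 and CXCL8 at 0.99, the latter not called when genes of low counts were kept in the fit. For none of the chemokines given here in CPM did a PBS library reach an ASO081 library.

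Among cytokines and their relatives 15 of 22 rose (13 with DESeq2 or with the siRNA libraries in the fit) and 0 fell (median 0.54). TNFSF10, the death ligand TRAIL, rose from 152 and 131 CPM to 303 and 274 (log2 fold change 1.10), TNFSF13B, a survival factor for B cells, from 4.37 and 3.03 to 11.9 and 10.4 (1.66), and CSF2, a growth factor for myeloid cells, from 7.31 and 8.11 to 17.2 and 17.0 (1.21). Inhibitory ligands and enzymes rose in 7 of 12 (range 5 to 8) and fell in 0 (median 0.29). IDO1, which degrades tryptophan, rose from 6.21 and 5.77 CPM to 19.4 and 18.4 (1.72), LGALS9 from 93.3 and 98.4 to 217 and 207 (1.21), and CD274, which encodes PD-L1, from 19.2 and 20.5 to 31.9 and 33.3 (0.78). Of 13 complement genes 3 rose (range 2 to 6) and 0 fell (median 0.14), with CFB from 24.3 and 24.6 CPM to 36.1 and 35.1 (0.61). Of 16 NF-κB pathway genes 9 rose (range 5 to 11) and 1 fell (median 0.26), among them the inhibitor NFKBIA, at 109 and 94.1 against 179 and 132 CPM (0.68). Of 21 cell death genes 12 rose (range 9 to 18) and 1, GSDME, fell (median 0.32). Among them was MLKL, the executor of necroptosis, which went from 13.5 and 13.8 CPM to 24.7 and 25.3 (0.94). The medians of these groups were above 0, with the smallest for complement, where 10 of 13 members were not called.

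Several rises lay outside the lists, and the first 7 given here were chosen after their values were seen. KMO, an enzyme of tryptophan breakdown, rose by 1.63 (log2), SLC15A3, a lysosomal peptide transporter, by 1.47, PNPT1, a mitochondrial RNA exonuclease, by 1.34, and RTP4 by 1.31. WARS, the tryptophan tRNA synthetase, rose by 0.87, LAP3, an aminopeptidase, by 0.91 and UBA7, the activating enzyme for ISG15, by 0.85. NT5C3A, a pyrimidine nucleotidase, rose from 59.2 and 58.9 CPM to 181 and 174 (1.65 ± 0.06). LINGO1, a neuronal membrane protein, rose from 1.46 and 1.28 CPM to 4.66 and 4.09 (1.74 ± 0.18), and HSPB9, a small heat shock protein known from testis, from 4.17 and 4.15 to 13.6 and 11.5 (1.66 ± 0.12).

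**Figure D3:**
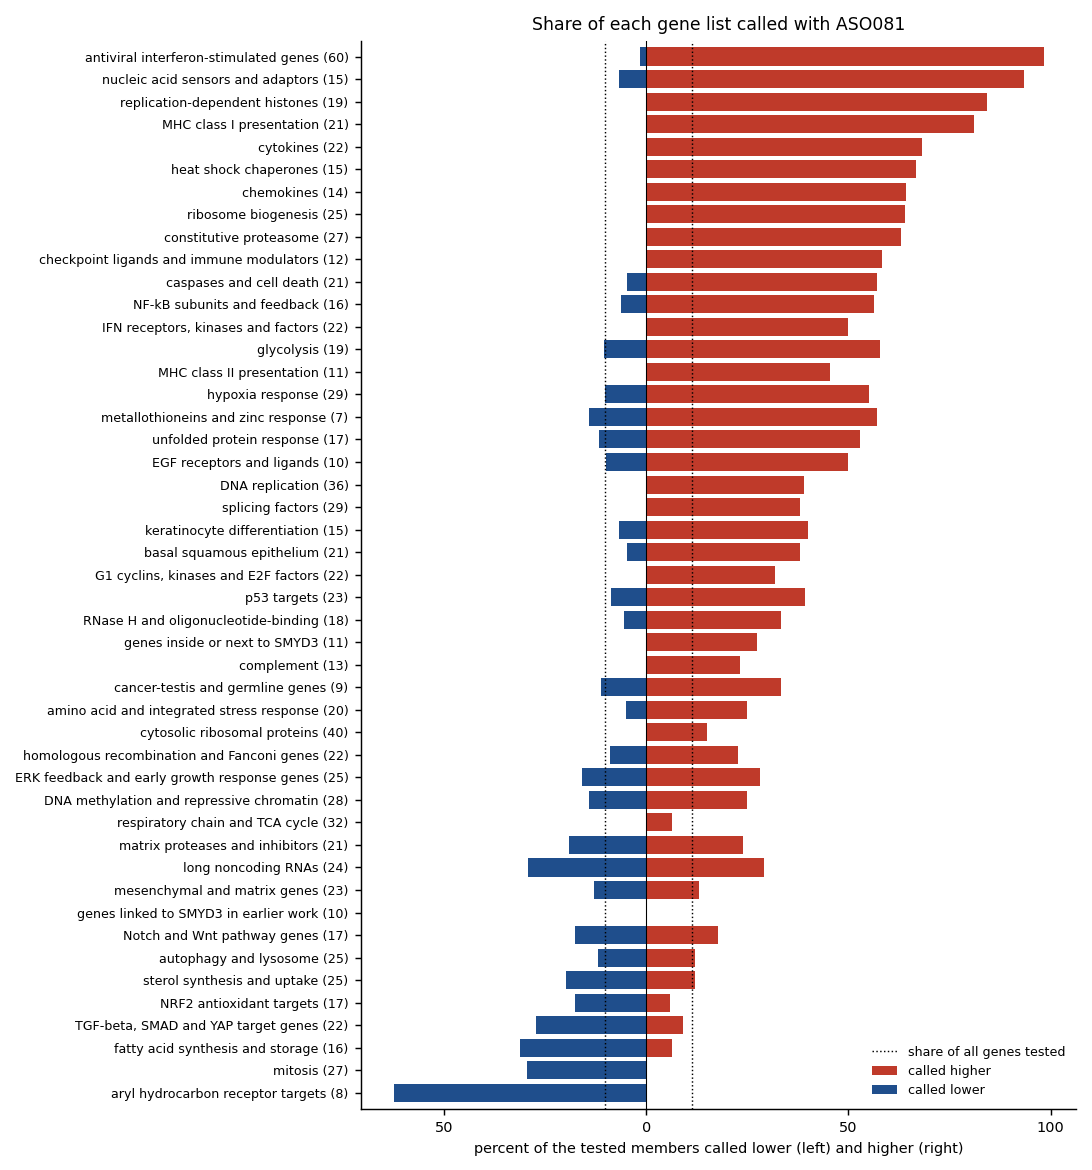
Share of tested members called higher (right) and called lower (left) with ASO081 in each gene list of 7 or more tested members other than the cell type markers, in percent of the number in brackets, with dotted lines at the shares over all genes, 11.3% and 10.3%. The antiviral list has 59 of 60 members higher, and the mitosis list 0 higher and 8 of 27 lower.

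Genes of low oxygen and of sugar breakdown rose in larger shares than the 11.3% of all genes. Of 29 hypoxia genes 16 rose and 3 fell (range of falls 1 to 4, with 1 without PBS replicate 2; median log2 fold change 0.24), and of 19 glycolysis genes 11 rose (range 7 to 14) and 2 fell (1 without PBS replicate 1, PBS replicate 2 or ASO081 replicate 1; 0.28). ANGPTL4, a secreted inhibitor of lipoprotein lipase, was at 1.78 and 2.12 CPM with PBS and at 5.59 and 5.72 with ASO081 (1.6 ± 0.16). BNIP3, a mitophagy receptor, was at 40.5 and 37.4 against 68.8 and 71.1 (0.91 ± 0.06), and DDIT4, an inhibitor of mTORC1, at 144 and 104 against 216 and 192 (0.79 ± 0.11). The glycolytic enzymes HK2, PGAM1 and LDHA rose by 0.59, 0.57 and 0.55. LDHA, which makes lactate, was at 924 and 939 CPM with PBS and at 1215 and 1396 with ASO081. All ASO081 libraries of these genes lay above the PBS libraries. Of 32 respiratory chain and citrate cycle genes 2 rose, CYCS and COX5A (range 0 to 7; 0 without PBS replicate 1, 1 without PBS replicate 2 or ASO081 replicate 2), and 0 fell (range 0 to 6; 2 without ASO081 replicate 1). Their median of -0.01 turns above 0 without ASO081 replicate 1 or PBS replicate 2. The 37 mitochondrially encoded genes had 0 reads in all 4 libraries, so they were not measured.

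Calls among lipid synthesis genes were scattered. Over all genes tested, 11.3% rose and 10.3% fell. Of 16 fatty acid genes 1 rose (range 0 to 4) and 5 fell (range 2 to 8, with 3 without PBS replicate 2; median -0.06). Of 25 sterol genes 3 rose (range 1 to 4) and 5 fell (range 1 to 8; 3 without PBS replicate 1, PBS replicate 2 or ASO081 replicate 2; median -0.03). ACACA, which makes malonyl-CoA, was at 212 and 224 CPM with PBS and at 153 and 170 with ASO081 (-0.37), FASN, the fatty acid synthase, at 388 and 435 against 305 and 316 (-0.34), and the desaturase SCD at 1029 and 1041 against 806 and 835 (-0.27). SREBF2, the transcription factor of sterol synthesis, was at 266 and 277 against 202 and 206 (-0.35). These 4 falls were below 1.5-fold. With the siRNA libraries in the fit, 2 fatty acid genes and 1 sterol gene fell. FASN and SCD were not called with the siRNA libraries in the fit, and SCD not without PBS replicate 2.

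Among protein folding and protein synthesis genes most calls were small rises. Over all genes tested, 11.3% rose and 10.3% fell, and the share of ribosomal protein genes that rose is near the first of these. Of 15 heat shock chaperones 10 rose (range 6 to 11) and 0 fell (median 0.24), led by HSPA8, the constitutive HSC70 chaperone, from 795 and 864 CPM to 1145 and 1399 (0.68 ± 0.09) and its co-chaperone DNAJA1 from 193 and 183 to 286 and 290 (0.68 ± 0.06). The heat shock element printed for HSPA8 occurs in 38 of all promoters (0.326%) and in 2 of 14 in this list. Of 17 genes of the unfolded protein response 9 rose and 2 fell (median 0.17; range of rises 2 to 10, with 3 without PBS replicate 2 and 5 without ASO081 replicate 1; range of falls 1 to 3), among them HSPA5, the chaperone BiP, from 1581 and 1578 CPM to 1947 and 1850 (0.33). Of 20 genes of the integrated stress response 5 rose (median 0.12; range 2 to 9, with 9 without ASO081 replicate 1) and 1 fell. This was ATF3, which was at 338 and 362 CPM with PBS and at 265 and 236 with ASO081 (-0.41), a call lost with the siRNA libraries in the fit. Of 27 proteasome subunits 17 rose and 0 fell (0.19; range of rises 6 to 25), but 6 rose when the spread was estimated together with the siRNA libraries, 7 with library totals alone, 8 without PBS replicate 1, 10 without PBS replicate 2 and 11 without ASO081 replicate 2. Of 25 ribosome biogenesis genes 16 rose (range 10 to 20) and 0 fell (0.26), among them NOP56, a snoRNP core protein, from 210 and 221 CPM to 286 and 314 (0.55). Of 29 splicing factors 11 rose and 0 fell (0.16; range of rises 2 to 17, with 2 when the siRNA libraries were in the fit and 7 without PBS replicate 2), with SRSF1 from 112 and 106 CPM to 148 and 153 (0.53). Of 40 ribosomal protein genes 6 rose and 0 fell (0.12; range of rises 0 to 26), with 0 rises under library totals alone, with the siRNA libraries in the fit or without PBS replicate 1, and 3 without ASO081 replicate 2.

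Most calls among metal response genes were rises, and all calls among xenobiotic response genes were falls. Of 7 metallothionein and zinc response genes 4 rose and 1 fell (median 0.62). MT2A, a metal-binding metallothionein, was at 176 and 178 CPM with PBS and at 392 and 376 with ASO081 (1.18 ± 0.06), and its relative MT1E at 35.5 and 38.6 against 82.7 and 83.5 (1.23 ± 0.06), although metallothionein copies are nearly alike and their reads uncertain. The zinc exporter SLC30A1 rose from 18 and 17.6 CPM to 26.0 and 26.8 (0.64), and the zinc importer SLC39A10 fell in both ASO081 libraries, to 12.2 CPM each (-0.73). Of 8 genes listed with the aryl hydrocarbon receptor 0 rose and 5 fell (-0.24). The 5 include ARNT, the partner of the receptor and not a target (-0.25). CYP1A1, a cytochrome that oxidises aromatic compounds, was at 4.85 and 4.62 CPM with PBS and at 1.37 and 1.88 with ASO081 (-1.47 ± 0.18, edgeR adjusted p = 0.00013). CYP1B1, a related cytochrome, was at 54.8 and 47.5 against 33.8 and 32.2 (-0.57), and AHRR, the repressor of the receptor, at 8.57 and 7.43 against 4.63 and 4.55 (-0.73). Both ASO081 libraries lay below both PBS libraries in all 3 genes. Of 17 NRF2 targets 1 rose (range 0 to 2) and 3 fell (range 1 to 9, with 5 without ASO081 replicate 1 or PBS replicate 2; median -0.10), among them the thioredoxin reductase TXNRD1 at 953 and 964 against 746 and 741 CPM (-0.30) and FTL, the ferritin light chain, at 2536 and 2488 against 2045 and 1907 (-0.28), both of them calls lost with the siRNA libraries in the fit. Of 25 autophagy and lysosome genes 3 rose (range 0 to 5, with 0 without PBS replicate 1) and 3 fell (range 1 to 5; median 0.02, below 0 with library totals alone or without ASO081 replicate 1), close to the shares of all genes. Among the 3 that fell, GABARAPL1 was at 168 and 157 CPM with PBS and 113 and 110 with ASO081 (-0.48).

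Beside SMYD3 and CYP1A1, the falls of expressed genes were led by EGR3, ACO1, IFITM10, VASH1, STON1, SEMA4G and RNF150 together with several noncoding or pseudogene transcripts. ACO1, the cytosolic aconitase that becomes an RNA-binding regulator when iron is low (chr9:32384603-32454769), was at 22.7 and 23.2 CPM with PBS and at 10.1 and 8.67 with ASO081 (log2 fold change -1.22 ± 0.09, edgeR adjusted p = 1.4e-06). VASH1, the vasohibin that removes tyrosine from tubulin, was at 5.98 and 5.87 against 2.68 and 2.24 (-1.20 ± 0.15). SEMA4G, a membrane-bound semaphorin, was at 9.41 and 8.83 against 4.18 and 3.93 (-1.10 ± 0.12). The rule that names these genes required groups that do not overlap. Chosen after their values were seen, KLF2 (-1.09), NNMT (-1.06), the copper transporter ATP7B (-1.03), the Polycomb protein CBX7 (-0.96) and the microtubule protein MAPT (-0.92) also fell. Reads of antisense transcripts such as AC089983.1 (-1.16 ± 0.12) may be mixed with those of partner genes, because the strand setting of the counting is not given. AC089983.1 lies on the minus strand within TXNRD1 on the plus strand, which fell less (-0.30). The share of mixed reads was not tested.

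Growth signalling lists held calls in both directions, as did all genes tested, of which 11.3% rose and 10.3% fell. Several of the counts here are small and near these shares. Of 10 EGF receptors and ligands 5 rose (range 3 to 5) and 1 fell (median 0.23), with the ligand BTC at 4.88 and 4.71 CPM with PBS and at 10.2 and 8.93 with ASO081 (1.06 ± 0.12) and the ligand AREG at 88.2 and 88.9 against 121 and 112 (0.46). Of 25 genes of ERK signalling and the early growth response 7 rose (range 4 to 9) and 4 fell (7 without ASO081 replicate 1). Their median of 0.01 turns below 0 with library totals alone, upper quartile factors, a mean count of 50 or more, the exon length trend removed or ASO081 replicate 1 left out. Those that fell include the immediate-early factors FOSB, at 1248 and 1199 CPM with PBS and at 611 and 506 with ASO081 (-1.07 ± 0.08), FOS, at 3256 and 3027 against 2185 and 1743 (-0.61 ± 0.09), EGR3, at 20.7 and 22.2 against 9.45 and 7.83 (-1.25 ± 0.10), and EGR2, at 28.9 and 29.2 against 20.6 and 14.2 (-0.67 ± 0.12). These are 4 and 2 members of their lists, and no difference between the lists was tested. Of 22 targets of TGF-β and YAP 2 rose (5 without ASO081 replicate 2) and 6 fell (range 3 to 8). Their median of -0.03 turns above 0 with the exon length trend removed and without ASO081 replicate 1 or PBS replicate 2. CCN2, a matricellular protein, was at 171 and 188 CPM against 104 and 101 (-0.74), and TGFB2 at 39.2 and 33.6 against 22.0 and 20.4 (-0.71), whereas ANKRD1 rose from 57.7 and 58.0 to 82.6 and 85.9 (0.61). Of 17 Notch and Wnt genes 3 rose and 3 fell (5 rises without ASO081 replicate 2 and 6 falls without ASO081 replicate 1; median 0.05, below 0 with library totals alone or without ASO081 replicate 1), with NOTCH3 at 41.6 and 43.8 against 26.6 and 27.2 CPM (-0.60).

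In the cell cycle the called genes of DNA replication were all higher and the called genes of mitosis all lower, though most members of both lists were not called. Of 36 replication genes 14 rose and 0 fell (median 0.17; range of rises 5 to 25), but 5 rose when the spread was estimated together with the siRNA libraries and 8 without PBS replicate 1. PCNA, the sliding clamp, was at 248 and 268 CPM with PBS and at 327 and 337 with ASO081 (0.43 ± 0.06). Of 22 cyclins, kinases and E2F factors of the G1 phase 7 rose (range 4 to 12; 11 without ASO081 replicate 1) and 0 fell (0.13), led by CCNE2, cyclin E2, at 21.1 and 20.8 against 30.6 and 35.4 CPM (0.72 ± 0.08). Of 27 mitosis genes 0 rose and 8 fell (-0.13), with 0 falls when the siRNA libraries were in the fit, 4 without PBS replicate 2 and 18 with library totals alone. TOP2A, the topoisomerase of chromosome condensation, was at 635 and 652 CPM against 473 and 515 (-0.31), and the kinesin KIF20A at 78.5 and 79.9 against 56.4 and 59.9 (-0.38). MKI67, the proliferation antigen Ki-67, was at 444 and 490 CPM with PBS and at 331 and 414 with ASO081 (-0.26 ± 0.09, edgeR adjusted p = 0.071), which did not pass the test.

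Histone genes were the most uniform group outside immunity. Of 19 tested 16 rose and 0 fell, with a median of 0.65, and 14 rose both by DESeq2 and with the siRNA libraries in the fit. HIST1H4H was at 34.8 and 37.2 CPM with PBS and at 86.7 and 90.5 with ASO081 (log2 fold change 1.37 ± 0.06), and HIST1H2AE at 15.7 and 14.4 against 31.1 and 27.2 (1.02 ± 0.08). The ASO081 libraries lay above the PBS libraries in both. Most replication-dependent histone mRNAs lack the poly(A) tail on which these libraries were selected, and their copies are nearly alike. Whether the reads come from a tailed part was not tested, and they are uncertain by gene. Of 22 homologous recombination and Fanconi genes 5 rose (range 0 to 12; 3 without PBS replicate 1 or ASO081 replicate 2, 9 without ASO081 replicate 1) and 2 fell (0.15; 0 fell without PBS replicate 2 or ASO081 replicate 1). Of 23 targets of p53 9 rose (range 4 to 11) and 2 fell (range 2 to 4; 0.09), with MDM2, the ligase that degrades p53, at 156 and 150 CPM against 192 and 186 (0.37) and the inhibitor CDKN1A at 264 and 270 against 311 and 299 (0.26), a call lost without PBS replicate 1.

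Of 28 genes of DNA methylation and repressive chromatin 7 rose (range 0 to 13; 3 without PBS replicate 1 or ASO081 replicate 2, 4 without PBS replicate 2) and 4 fell (range 2 to 7; 2 without PBS replicate 2), with a median of 0.12. UHRF1, which guides maintenance DNA methylation, was at 46.2 and 47.3 CPM with PBS and at 56.2 and 58.2 with ASO081 (log2 fold change 0.36 ± 0.06, edgeR adjusted p = 0.0012, and 0.057 with the siRNA libraries in the fit). DNMT1, the methyltransferase it recruits, was at 185 and 209 CPM against 177 and 200 (0.00 ± 0.08, edgeR adjusted p = 0.99), with overlapping groups. CBX5, the heterochromatin protein HP1α, was at 197 and 209 against 139 and 158 (-0.38), and TET1, a methylcytosine oxidase, at 9.38 and 8.77 against 5.87 and 6.62 (-0.47), which DESeq2 did not call. Of 3 tested SMYD relatives 1 rose, SMYD2, from 23.2 and 23.0 CPM to 26.1 and 26.6 (0.25), which was not called without either PBS replicate or ASO081 replicate 2. Of 10 genes linked to SMYD3 in earlier work 0 rose and 0 fell by edgeR (median 0.03, below 0 with library totals alone; 2 rose without ASO081 replicate 1). Of 9 cancer-testis genes 3 rose, MAGEB2, MAGEA3 and MAGEA6 (the last 2 nearly alike in sequence, and MAGEA3 not called without PBS replicate 1), and 1 fell, STK31 (-0.55). MAP3K2, a kinase that SMYD3 methylates, was at 56.5 and 52.1 CPM with PBS and at 52.3 and 53.5 with ASO081.

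Of 21 basal epithelial genes 8 rose and 1 fell (median 0.17; range of rises 2 to 12), with 2 rises when the siRNA libraries were in the fit and 2 without PBS replicate 1. TP63, the master factor of squamous epithelium, was at 58.9 and 54.8 CPM with PBS and at 52.9 and 51.8 with ASO081 (-0.05), and the keratin KRT5 at 357 and 370 against 388 and 394 (0.17, edgeR adjusted p = 0.053). KRT6A, a keratin of stressed and wounded epithelium, rose from 2.85 and 3.56 CPM to 7.5 and 8.22 (1.36 ± 0.15), the largest change in the list, although its reads cannot be fully told apart from those of the similar KRT6B and KRT6C. COL17A1, the hemidesmosomal collagen, rose from 39.7 and 46.2 CPM to 62.7 and 59.8 (0.58). Of 15 keratinocyte differentiation genes 6 rose and 1 fell (0.07), among them KRT13 from 86.2 and 76.2 CPM to 131 and 112 (0.65) and the factor GRHL3 from 2.81 and 3.59 to 5.52 and 6.85 (1.01). Of 23 mesenchymal genes 3 rose (range 1 to 4) and 3 fell (range 1 to 6, with 5 without ASO081 replicate 2, 1 without PBS replicate 2), shares near those of all genes, and their median of -0.02 turns above 0 with DESeq2, the joint spread, either other filter on counts, the exon length trend removed, or ASO081 replicate 1 or PBS replicate 2 left out. Of 21 proteases and inhibitors 5 rose (range 3 to 6) and 4 fell (range 0 to 7; 2 without PBS replicate 1, 1 without PBS replicate 2), with a median of 0.07. The urokinase receptor PLAUR rose from 76.8 and 77.9 CPM to 127 and 117 (0.73 ± 0.06) and urokinase, PLAU, from 793 and 778 to 1021 and 956 (0.40 ± 0.06).

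Of 18 RNase H enzymes and proteins known to bind oligonucleotides 6 rose (range 2 to 10) and 1 fell (median 0.11). The 1 that fell was RNASEH1 itself, at 94.1 and 90.6 CPM with PBS and at 76.8 and 78.3 with ASO081 (log2 fold change -0.19, edgeR adjusted p = 0.029); it was not called by DESeq2 or without PBS replicate 1, PBS replicate 2 or ASO081 replicate 1. The nucleolar proteins NCL and NPM1 rose by 0.31 and 0.25, the second not without PBS replicate 1. Of 24 long noncoding RNAs 7 rose and 7 fell (range of falls 3 to 7; median 0.15). The snoRNA host transcripts SNHG12, from 64.6 and 62.3 CPM to 108 and 101 (0.79), and SNHG1, from 188 and 200 to 283 and 298 (0.65), rose. NEAT1, the scaffold of nuclear paraspeckles, was at 1447 and 1319 CPM against 1106 and 990 (-0.33), and MALAT1, a nuclear speckle RNA, at 1428 and 1199 against 1138 and 940 (-0.27, edgeR adjusted p = 0.047, DESeq2 adjusted p = 0.3), which was not called without PBS replicate 1 or ASO081 replicate 2. Neither of these calls held with the exon length trend removed.

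Exon length moved with the fold change. Protein-coding genes were split into 5 groups of near-equal size by summed exon length. The median log2 fold change was 0.08 in the shortest group (312 to 2862 bases), then 0.04, 0.01 and -0.02, and -0.08 in the longest (8302 to 118976 bases). In the shortest group 19.3% of genes rose and 3.85% fell, and in the longest 6.99% rose and 22.8% fell. Tested histone genes had a median exon length of 871 bases, within the shortest group, and ribosomal protein genes 3091, within the next group. The part of this trend in the small changes was tested only by removing it, an alternative chosen after seeing the data. With the trend removed, 12 replication genes rose, 11 mitosis genes fell, 16 histone genes rose, 14 proteasome genes rose and 4 ribosomal protein genes rose.

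**Figure D4:**
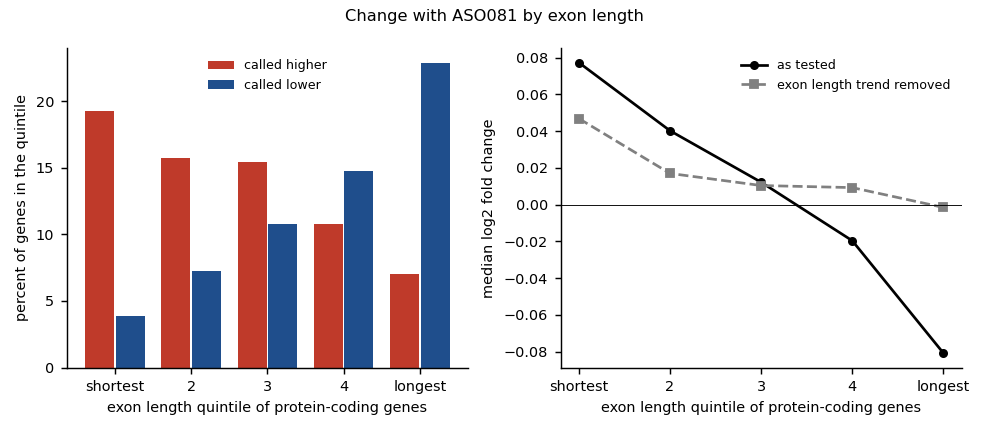
Percent of protein-coding genes called higher (red) and lower (blue) in 5 groups of summed exon length (left), and the median log2 fold change of each group as tested and with the length trend removed (right). The medians run from 0.08 in the shortest group to -0.08 in the longest as tested, and from 0.05 to about 0 with the trend removed.

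The same transcript was lowered by siRNA in HN-6 cells under the same interferon treatment, with 3 SMYD3 siRNA and 3 control siRNA libraries that share no sample with the oligonucleotide experiment. Of 16610 genes tested for a difference between both effects, 3605 (21.7%) had a higher log2 fold change with ASO081 and 3057 (18.4%) a lower one. The controls started from different levels, set here across tables counted with different annotations. RSAD2 was at 27.7 and 29.6 CPM with PBS and at 344, 383 and 347 with the control siRNA, above both ASO081 libraries (232 and 242), and at 870, 784 and 682 with the SMYD3 siRNA. The antiviral list summed to 17250 and 17703 CPM with PBS, 31498 and 31350 with ASO081, 40027, 41438 and 41332 with the control siRNA and 47515, 45135 and 43270 with the SMYD3 siRNA. The summed level of the antiviral genes was therefore higher under control siRNA than under PBS and also higher than under ASO081. The part of this gap in the differences that follow was not tested.

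The list median of the antiviral genes was 0.97 with ASO081 and 0.38 with the siRNA, and for 44 of 60 genes the log2 fold change was higher with ASO081, for 2 lower. Of the 15 largest rises with ASO081 14 were larger than with the siRNA, and of the 8 largest falls beside SMYD3 that could be tested 5 were lower; these genes were chosen for their ASO081 values, which favours such an excess. CXCL10 rose by 3.45 with ASO081 and by 2.52 with the siRNA (difference 0.93 ± 0.19, edgeR adjusted p = 0.0011), from 142, 113 and 111 CPM with the control siRNA to 699, 667 and 537. Mitosis genes had a median of -0.13 with ASO081 and -1.35 with the siRNA, and 27 of 27 differed in that direction. DNA replication genes had medians of 0.17 and -0.50, with 26 of 36 higher with ASO081 and 1 lower. UHRF1 was at 46.2 and 47.3 CPM with PBS, at 56.2 and 58.2 with ASO081, at 12.9, 9.61 and 11.3 with the control siRNA and at 2.71, 2.94 and 3.75 with the SMYD3 siRNA, so it rose with ASO081 (0.36) and fell with the siRNA (-1.70). The medians of the cell cycle lists thus lay near 0 with ASO081 and below 0 with the siRNA.

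Other groups differed in the opposite sense, immune lists among them: of 13 complement genes 1 was higher with ASO081 and 9 lower, and of NF-κB genes 1 was higher and 6 lower. NRF2 targets had a median of -0.10 with ASO081 and 0.66 with the siRNA, with 12 of 18 lower with ASO081 and 0 higher. Autophagy and lysosome genes had medians of 0.02 and 0.48, with 20 of 25 lower with ASO081 and 1 higher. Genes of the aryl hydrocarbon receptor list had medians of -0.24 and 0.45, with 6 of 8 lower with ASO081 and 0 higher. CYP1A1 was not among the 6. It fell with both agents (-1.47 with ASO081 and -1.55 with the siRNA, difference 0.07 ± 0.50, edgeR adjusted p = 0.93). EGR3, at 20.7 and 22.2 CPM with PBS and 9.45 and 7.83 with ASO081, was at 14.4, 21.4 and 22.1 with the control siRNA and at 69.1, 81.7 and 73.3 with the SMYD3 siRNA. ACO1 fell with ASO081 (-1.22) and was at -0.06 with the siRNA. VASH1 fell with both agents (-1.20 with ASO081 and -1.40 with the siRNA, difference 0.20 ± 0.22, edgeR adjusted p = 0.50). CCL5 rose with ASO081 (1.18) and fell with the siRNA (-1.26), and LINGO1 rose by 1.74 and fell by 1.22 in the same order. None of the 11 genes around SMYD3 differed between both effects at an adjusted p under 0.05 by edgeR.

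**Figure D5:**
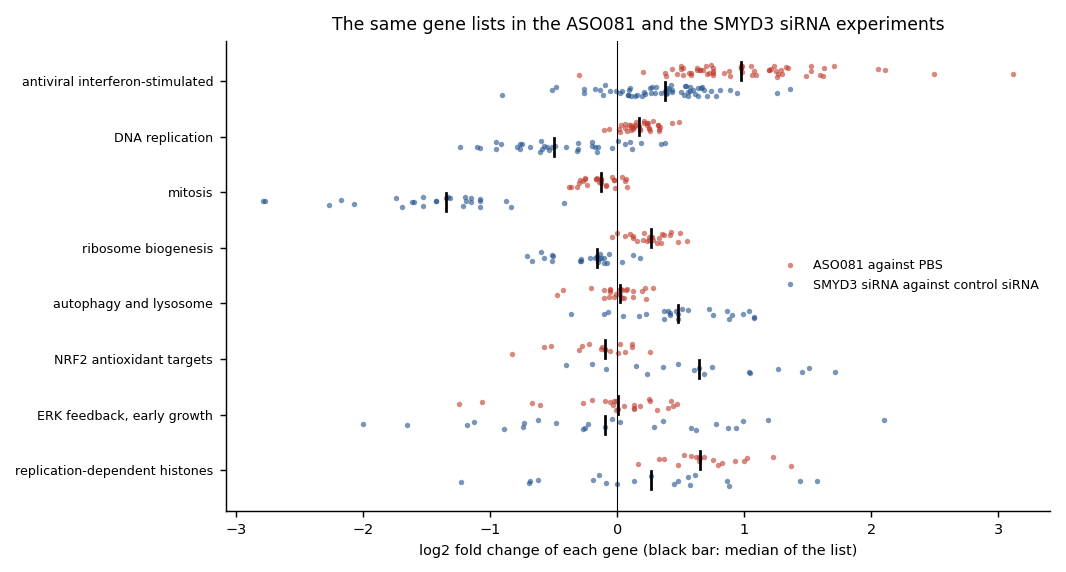
Log2 fold change of each member of 8 gene lists (horizontal axis) with ASO081 over PBS (red) and with SMYD3 siRNA over control siRNA (blue), with a black bar at each list's median; vertical scatter within a row only separates the points. The mitosis medians lie at -0.13 and -1.35, the antiviral medians at 0.97 and 0.38, and the NRF2 medians at -0.10 and 0.66.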

How the data were processed

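RNA from HN-6 cells was extracted, selected for poly(A) and made into stranded libraries, per the labels' protocols. Bowtie, bcl2fastq and the hg38 build are named in the submitters' processing notes. Not given in the sources used here: their versions, the counting tool, its strand setting and the annotation. The PBS and ASO081 table holds read counts per gene as the authors deposited them, whole numbers for 57316 symbols, without normalization. The deposited siRNA counts, used for the difference between both effects, held 23588 lines without a symbol (0.849% to 0.917% of reads), which stayed out of the comparison of symbols. The deposited gene length set the exon length groups and entered the alternative with the length trend removed. The other deposited columns were used only as descriptions.

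Genes were filtered with filterByExpr, scaled with TMM factors (0.970 to 1.03) and tested with edgeR 4.0.16 (robust quasi-likelihood F-test, two-sided, Benjamini-Hochberg) on the 4 libraries alone, in R 4.3.3. An adjusted p under 0.05 is a call, "rose" and "fell" mean called genes, and SE is the log2 fold change divided by the square root of F. CPM was taken over total reads in genes. The difference between the ASO081 and siRNA effects was a contrast of 4 groups over 10 libraries and 16610 shared symbols. With 2 libraries a side an exact permutation test cannot go below 0.333, so no single-gene permutation test was used. p-values measure only the spread between these libraries. Alternatives were upper quartile factors, library totals alone, DESeq2 1.42.0, other count filters (none, or a mean count of 50), a replicate block, a spread estimated together with the siRNA libraries, leaving out each library, and removal of the exon length trend. Scripts were tested on simulated data.

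Gene positions came with the deposited PBS and ASO081 counts. Gene classes came from GENCODE release 29 on GRCh38, or from RefSeq where GENCODE had no match, and promoters from RefSeq. The members and the 52 gene lists were chosen with earlier results of these data known. Genes were named by rule: SMYD3 and its neighbours, the 15 strongest calls in each direction whose groups did not overlap and whose mean log2 CPM was at least 1, the 4 largest called changes in each list, and 14 fixed genes. Other genes were named after their values were seen, as examples or where a single member of a list differed. Symbols of 28 list members were matched through older names.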

Additional observations from a re-analysis of the deposited data

Results flagged for a closer look

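The effect of ASO081 over PBS differed from the effect of the SMYD3 siRNA over its control siRNA for 6662 of 16610 genes by edgeR's quasi-likelihood test of the difference. Differences are given as the log2 fold change with ASO081 minus that with the siRNA, with the SE, and all adjusted p-values are from that test.

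The value was higher with ASO081 by 1.85 ± 0.14 for the antiviral gene RSAD2 (adjusted p = 9.83e-08) and by 1.93 ± 0.13 for its neighbour CMPK2. It was higher by 1.72 ± 0.12 for the nucleotidase NT5C3A and by 2.44 ± 0.11 for the chemokine CCL5. Of 13 complement genes 1 was higher and 9 lower. Other genes given here that lay higher with ASO081 were the methylation cofactor UHRF1, by 2.06 ± 0.17, the replication factor MCM10 by 1.44 ± 0.17, MKI67 by 1.09 ± 0.28 (adjusted p = 0.0127) and the kinesin KIF20A by 1.24 ± 0.25 (adjusted p = 0.00198). The urokinase gene PLAU differed by 1.21 ± 0.12.

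Lower with ASO081 were the early growth factors EGR3, by -3.34 ± 0.24, and FOS, by -1.60 ± 0.15, the aldo-keto reductase AKR1B10, an NRF2 target, by -2.03 ± 0.17, the cytochrome CYP1B1, by -1.87 ± 0.21, and the aconitase ACO1, by -1.15 ± 0.18 (adjusted p = 0.000118). Both experiments differ in agent, control and starting level of the interferon genes, and these cannot be told apart.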

How the results depend on the processing

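The fall of SMYD3 kept its direction and its call under all 12 alternatives (log2 fold change -2.71 to -2.36). The 2068 rises became 1338 with library totals alone, 1323 with DESeq2 and 941 with the spread estimated together with the siRNA libraries; the 1880 falls became 2999, 967 and 828 under these. The 182 rises of 2-fold or more became 97 with DESeq2 and 102 with a mean count of 50 or more. The 101 falls of 2-fold or more became 152 with library totals alone, 21 with DESeq2, 28 with a mean count of 50 or more and 47 with the joint spread, and ranged from 75 to 184 when 1 library was left out, with 184 without ASO081 replicate 1. The replicate block gave 3477 rises, 3296 falls and 154 falls of 2-fold or more, with 26 rises among ribosomal proteins in place of 6, 25 among replication genes in place of 14 and 17 among splicing factors in place of 11. The labels do not say that a number marks a shared day, and same-numbered deviations correlated at 0.11, with the second principal component (22.0% of the variance) separating the numbers. Leaving out 1 library gave 1426 to 2204 rises and 1296 to 1914 falls. Removing the exon length trend gave 2237 rises and 1669 falls. Called under every alternative were 785 rises and 582 falls, of which 89 and 15 were 2-fold or more with the edgeR settings used throughout. The 2-fold limit was not applied to the alternatives. The genes differing from the siRNA effect numbered 6198 with DESeq2 and 5225 to 5423 with 1 library left out. Of 210 named genes that were called, 144 were called in the same direction in every alternative that gave a value, and none reversed. The cause of these shifts was not tested. Depth limits scarce transcripts such as IFNB1 and IFNL1.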
